A study of Homo sapiens with 4 samples.

Results

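The expression of 10 genes of Wnt and Notch signalling, among them feedback genes, targets, ligands and receptors, was followed through an estrogen time course in single cells. The genes were RNF43, ZNRF3, AXIN2, LGR4 and WNT4 on the Wnt side and HES1, HES4, HEY1, JAG1 and NOTCH2 on the Notch side. They were chosen by symbol, with earlier results of these data known. Each had exactly 1 entry among the 33540 features of the Ishikawa matrix and the 33538 of the T-47D matrix. Ishikawa is an established line from an endometrial adenocarcinoma, and T-47D an established line from a ductal carcinoma of the mammary gland. Cultures of each line, grown in RPMI medium with fetal bovine serum and moved to hormone-depleted medium before induction, received 17β-estradiol (E2) at 10 nM for 2, 4 or 8 h, and the vehicle DMSO served as 0 h. All cultures of a line were marked with MULTI-seq membrane tags, mixed, and run as 1 droplet library for that line.

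There was 1 culture per line and time point. No value below therefore has a replicate, no test was possible, and every interval is a 95% interval for counting error alone. These intervals leave out the spread between cells and between cultures. Levels are unique molecular identifiers (UMIs, single captured transcripts) summed over the cells of a culture and scaled to 1000000 UMIs (CPM), and the summed cells are called a pool. Changes are given as log2((CPM + 1)/(CPM at 0 h + 1)), which understates the change of low genes, and ratios are plain ratios of CPM. A gene was called higher or lower when its mean over the 4 pools of its line was at least 10 CPM and its change at least 1.5-fold, 0.585 on the log2 scale.

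Wnt ligands bind Frizzled receptors with an LRP co-receptor, which spares β-catenin from destruction and lets it act with TCF/LEF factors in the nucleus. RNF43 and ZNRF3 are membrane ubiquitin ligases that clear Frizzled from the cell surface, and AXIN2 is a scaffold of the complex that destroys β-catenin. All 3 genes are themselves switched on by β-catenin in many tissues, so they act as negative feedback, while LGR4 is a receptor for R-spondins, which remove RNF43 and ZNRF3. In Notch signalling a ligand such as JAG1 on one cell triggers cleavage of a receptor such as NOTCH2 on its neighbour. The freed intracellular part joins the DNA-binding protein RBPJ and turns on HES and HEY genes, which encode repressors.

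The pools held 776, 1480, 892 and 1465 Ishikawa cells and 1525, 1207, 1341 and 553 T-47D cells at 0, 2, 4 and 8 h, with 12927799 to 33175309 UMIs each. Among cells called to a time point in Ishikawa, the limits of the study kept 38.2% at 0 h against 52.4% to 55.8% later. A GFP feature took 4.67% of UMIs in the Ishikawa pool at 0 h and 3.17% to 4.10% in the others, and which construct it came from is not given in the sources used here. Of the barcode sequences, 80 occurred in both matrices. Both lines carried the epithelial markers EPCAM, KRT8, KRT18 and CDH1. PAX8 and SOX17, transcription factors of the endometrial epithelium, were at 94.2 to 125.6 CPM and 52.4 to 55.6 CPM in Ishikawa and at 0 UMIs in all T-47D pools, whereas GATA3, a luminal breast factor, was at 444 to 518 CPM in T-47D and at most 1 UMI per pool in Ishikawa. The leukocyte marker PTPRC and the endothelial marker PECAM1 had 3 UMIs or fewer in each pool, and the endothelial marker VWF 2 to 40. Of the fibroblast markers COL1A1 alone passed 10 CPM, at 28.9, 23.3, 21.4 and 19.8 CPM in Ishikawa. COL3A1 had 22, 33, 17 and 39 UMIs there, and DCN 0 or 1 UMI per pool. The T-47D pools held COL1A1 at 5.58 to 6.96 CPM, COL3A1 at 0 to 5 UMIs and DCN at 8 to 25 UMIs. The part of COL1A1-bearing cells in the changes of the members was not tested. The estrogen targets PGR and GREB1 were higher in E2 in both lines. PGR was at 130 CPM in the T-47D pool at 0 h and 355 CPM at 8 h. In Ishikawa it was at 0.915 and 4.71 CPM (14 and 146 UMIs), under the 10 CPM minimum. TFF1 was at 4.88 and 32.6 CPM in T-47D, and at 3 UMIs or fewer in each Ishikawa pool.

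Promoters were available for 7 of the 10 genes in RefSeq (build GRCh38.p14; the deposited counts were made on hg38). The 250 bases before the gene start are shown for the genes on which the results turn, JAG1, HES1 and RNF43, which were each called lower in E2 in 1 of the lines, and for HES4, a close relative of HES1 that was not. The windows lie at chr20:10674000-10674249 on the minus strand for JAG1, chr3:194135898-194136147 on the plus strand for HES1, chr1:1000098-1000347 on the minus strand for HES4 and chr17:58417535-58417784 on the minus strand for RNF43, and each is written in the direction of its gene. Capitals mark matches, on either strand, to the letters TGGGAA bound by RBPJ, the N box CACNAG bound by HES proteins, the E box CACGTG, the TCF/LEF letters CTTTGA, or GGTCA, 1 arm of the estrogen response element.
JAG1: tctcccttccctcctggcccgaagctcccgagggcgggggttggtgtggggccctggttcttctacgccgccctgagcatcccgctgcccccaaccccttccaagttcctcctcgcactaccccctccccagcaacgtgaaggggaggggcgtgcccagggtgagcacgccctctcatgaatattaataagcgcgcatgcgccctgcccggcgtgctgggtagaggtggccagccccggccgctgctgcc
HES1: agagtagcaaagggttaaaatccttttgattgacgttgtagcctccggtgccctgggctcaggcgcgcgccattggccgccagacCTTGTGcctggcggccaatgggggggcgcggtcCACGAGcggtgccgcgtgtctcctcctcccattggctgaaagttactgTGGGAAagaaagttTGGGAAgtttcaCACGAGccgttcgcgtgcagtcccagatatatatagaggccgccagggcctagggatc
HES4: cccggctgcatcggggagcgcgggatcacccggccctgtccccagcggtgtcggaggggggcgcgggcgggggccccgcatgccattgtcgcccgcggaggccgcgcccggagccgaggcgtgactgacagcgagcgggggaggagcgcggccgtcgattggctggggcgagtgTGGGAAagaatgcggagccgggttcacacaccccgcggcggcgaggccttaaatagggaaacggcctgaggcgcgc
RNF43: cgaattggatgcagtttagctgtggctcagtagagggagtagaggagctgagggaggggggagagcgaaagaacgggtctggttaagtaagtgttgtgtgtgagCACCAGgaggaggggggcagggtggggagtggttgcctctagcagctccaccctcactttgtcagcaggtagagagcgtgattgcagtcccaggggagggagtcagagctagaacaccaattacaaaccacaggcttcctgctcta

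The HES1 window held 2 TGGGAA matches, which began 84 and 70 bases before the gene start, and 3 N box matches that began 165, 132 and 58 bases before it. HES4 held 1 TGGGAA match, 76 bases before its start, and RNF43 held 1 N box match. No letters searched for were found in the JAG1 window. Over all 35116 promoters of the table, 20.8% held TGGGAA in the same window, 32.0% the N box, 6.34% the E box, 11.2% the TCF/LEF letters and 32.6% GGTCA. None of the 4 windows held the full estrogen response element, GGTCA and TGACC spaced by 3 bases, which 0.0399% of all promoters held. These matches are letters in a window, not measured binding. Of the other members with an entry, LGR4 held 1 TGGGAA match, NOTCH2 held 1 GGTCA match, and WNT4 and a second RNF43 start held none.

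**Figure D1:**
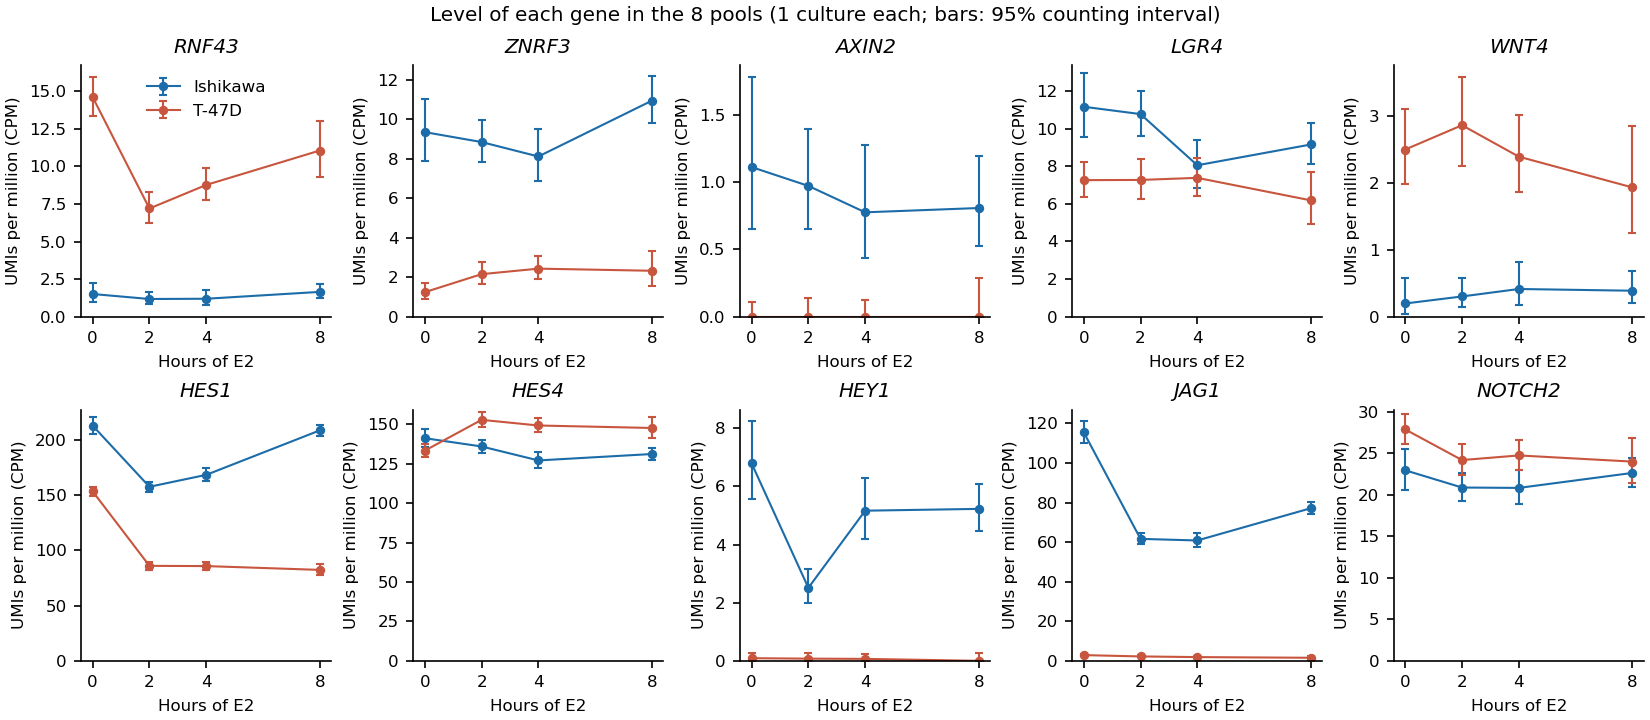
Level of each of the 10 genes in CPM (vertical axis from 0, scaled for each gene) against hours of E2 in Ishikawa (blue) and T-47D (red). Points are pools of 1 culture and bars are 95% Poisson counting intervals; JAG1 in Ishikawa was at 115.5 CPM at 0 h and at 61.6 and 60.8 CPM at 2 and 4 h, and HES1 in T-47D at 153 CPM at 0 h and at 82.2 to 85.9 CPM in E2.

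The ligand gene JAG1 (ENSG00000101384, chr20:10637684-10673999) was lower in E2-treated Ishikawa cells. Its level was 115.5 CPM at 0 h (95% interval 110.2 to 121.0), 61.6 CPM at 2 h (58.9 to 64.5), 60.8 CPM at 4 h (57.4 to 64.4) and 77.1 CPM at 8 h (74.1 to 80.3). The 0 h pool stood above all 3 E2 pools, and the 8 h pool stood above those at 2 and 4 h, which overlapped each other. The log2 change was -0.90 at 2 h and -0.91 at 4 h, past the 1.5-fold rule, and -0.58 at 8 h, just short of it. The ratio to 0 h was 0.534 (0.50 to 0.570) at 2 h, 0.527 (0.489 to 0.567) at 4 h and 0.668 (0.628 to 0.711) at 8 h. Between 4 and 8 h the level came back by a ratio of 1.27 (1.18 to 1.36).

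The lower JAG1 level was seen in how many cells carried it as well as in how many UMIs they held. JAG1 had a UMI in 72.3% of Ishikawa cells at 0 h and in 57.2%, 59.1% and 66.6% at 2, 4 and 8 h. With each cell thinned to 12539 UMIs, which left out 57 to 175 shallower cells per pool, these shares were 62.4%, 45.1%, 42.0% and 51.6%. Cells with 3 or more JAG1 UMIs made up 35.4% of the pool at 0 h and 16.3%, 18.4% and 23.0% later. The share of called cells that the limits kept was lowest at 0 h, and the changes were larger with all called cells, at -1.19, -1.03 and -0.82. In cells with under 1% of UMIs from GFP the change at 8 h was -0.70. Under 4 of 10 alternatives the 8 h change passed the rule.

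In T-47D, JAG1 was close to the lower end of what these pools could measure. Its counts were 96, 59, 56 and 20 UMIs at 0, 2, 4 and 8 h, or 2.89, 2.22, 1.89 and 1.55 CPM. The ratio to 0 h was 0.769 (0.546 to 1.07) at 2 h, 0.653 (0.461 to 0.917) at 4 h and 0.535 (0.313 to 0.872) at 8 h. The last 2 intervals lay below 1, but the gene was under the 10 CPM minimum and was not called. At 0 h the Ishikawa level was 39.9 times that of T-47D (32.5 to 49.5). Each line was its own library, so line and library cannot be told apart in such a ratio.

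The receptor gene NOTCH2 (ENSG00000134250, chr1:119911553-120069662) stayed inside the fold rule in both lines. In Ishikawa it was at 22.9, 20.9, 20.8 and 22.6 CPM at 0, 2, 4 and 8 h, with overlapping intervals. The log2 changes there were -0.13, -0.13 and -0.02. With all called Ishikawa cells they were -0.39, -0.43 and -0.29, so the size of the NOTCH2 change depended on the cells kept. In T-47D it was at 27.9 CPM at 0 h (26.1 to 29.7) and at 24.2, 24.7 and 24 CPM in E2. The T-47D ratios of 0.868 (0.783 to 0.961), 0.888 (0.805 to 0.979) and 0.861 (0.755 to 0.980) lay below 1 beyond counting error and inside the fold rule. NOTCH2 has near-identical NOTCH2NL copies in the genome, and how the counting divided reads among them is uncertain. At 0 h the T-47D level was 1.21 times that of Ishikawa (1.07 to 1.38).

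HES1 (ENSG00000114315, chr3:194136148-194138732), a repressor gene commonly used as a readout of Notch activity, was lower in E2-treated T-47D cells at all 3 times. Its level was 153 CPM at 0 h (149 to 157), 85.9 CPM at 2 h (82.4 to 89.5), 85.7 CPM at 4 h (82.4 to 89.1) and 82.2 CPM at 8 h (77.4 to 87.3). The 3 E2 pools overlapped each other and lay far below 0 h. The log2 changes were -0.83, -0.83 and -0.89, and the ratios 0.561 (0.533 to 0.589), 0.559 (0.533 to 0.587) and 0.537 (0.502 to 0.573). From 2 to 8 h the ratio was 0.957 (0.889 to 1.03), so no further change was detectable at this depth.

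Of T-47D cells, 86.0% had a HES1 UMI at 0 h, and 67.5%, 70.8% and 70.9% did so after 2, 4 and 8 h of E2. Thinned to 14495 UMIs per cell, with 34 to 194 shallower cells left out per pool, it was 79.3%, 57.0%, 59.1% and 58.6%. Cells with 3 or more HES1 UMIs made up 53.0% at 0 h and 27.7% to 29.7% in E2. Each library held 1 cell line, so no cell type that should lack HES1 was at hand within it to measure UMIs from free RNA.

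In the kept Ishikawa cells, HES1 dipped and came back. It was at 213 CPM at 0 h (205 to 220), 157 CPM at 2 h (153 to 162), 168 CPM at 4 h (162 to 174) and 208 CPM at 8 h (203 to 214). By counting error alone the pools at 0 and 8 h overlapped, and both stood above those at 2 and 4 h. In each pool the 10% of cells with most HES1 held 49.1% to 52.7% of its UMIs. The intervals leave out this spread between cells and are too narrow for HES1 here. The changes of -0.43, -0.34 and -0.03 stayed within the fold rule. In cells with under 1% GFP the changes were -0.62, -0.47 and -0.19 at 2, 4 and 8 h, with that at 2 h past the rule. With all called cells they were -0.53, -0.32 and -0.12. How far HES1 came back by 8 h thus depended on the cells used. Ratios of the next step were 1.07 (1.02 to 1.12) from 2 to 4 h and 1.24 (1.19 to 1.29) from 4 to 8 h. The Ishikawa level was 1.39 times that of T-47D at 0 h (1.33 to 1.45) and 2.53 times at 8 h (2.37 to 2.71).

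HES4 (ENSG00000188290, chr1:998964-1000097), a repressor gene of the same family, did not follow HES1. In T-47D its level was 133 CPM at 0 h (129 to 137), 153 CPM at 2 h (148 to 158), 149 CPM at 4 h (145 to 154) and 148 CPM at 8 h (141 to 155). The 3 E2 pools overlapped and stood above 0 h, with log2 changes of 0.20, 0.16 and 0.15, inside the fold rule. In Ishikawa it was at 141, 136, 127 and 131 CPM, with ratios to 0 h of 0.963 (0.914 to 1.01), 0.90 (0.849 to 0.954) and 0.929 (0.881 to 0.979).

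HEY1, the third repressor gene, was low in Ishikawa and nearly absent from the T-47D counts. In Ishikawa it had 104, 75, 100 and 162 UMIs, or 6.80 CPM at 0 h (5.55 to 8.23), 2.51 CPM at 2 h (1.98 to 3.15), 5.16 CPM at 4 h (4.20 to 6.28) and 5.23 CPM at 8 h (4.45 to 6.10). The 2 h pool stood below the other 3, which overlapped. The ratio at 2 h was 0.370 (0.271 to 0.502), a log2 change of -1.15, but the gene was under the minimum and was not called. The cells behind these counts were few, 72, 56, 54 and 104, and single cells held 19 of the UMIs at 4 h and 17 at 8 h. Of T-47D cells, HEY1 had 3, 2 and 2 UMIs at 0, 2 and 4 h and 0 at 8 h, where 0 of 553 cells, by the limit of 3 counts, allows a share of up to 0.542%.

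**Figure D2:**
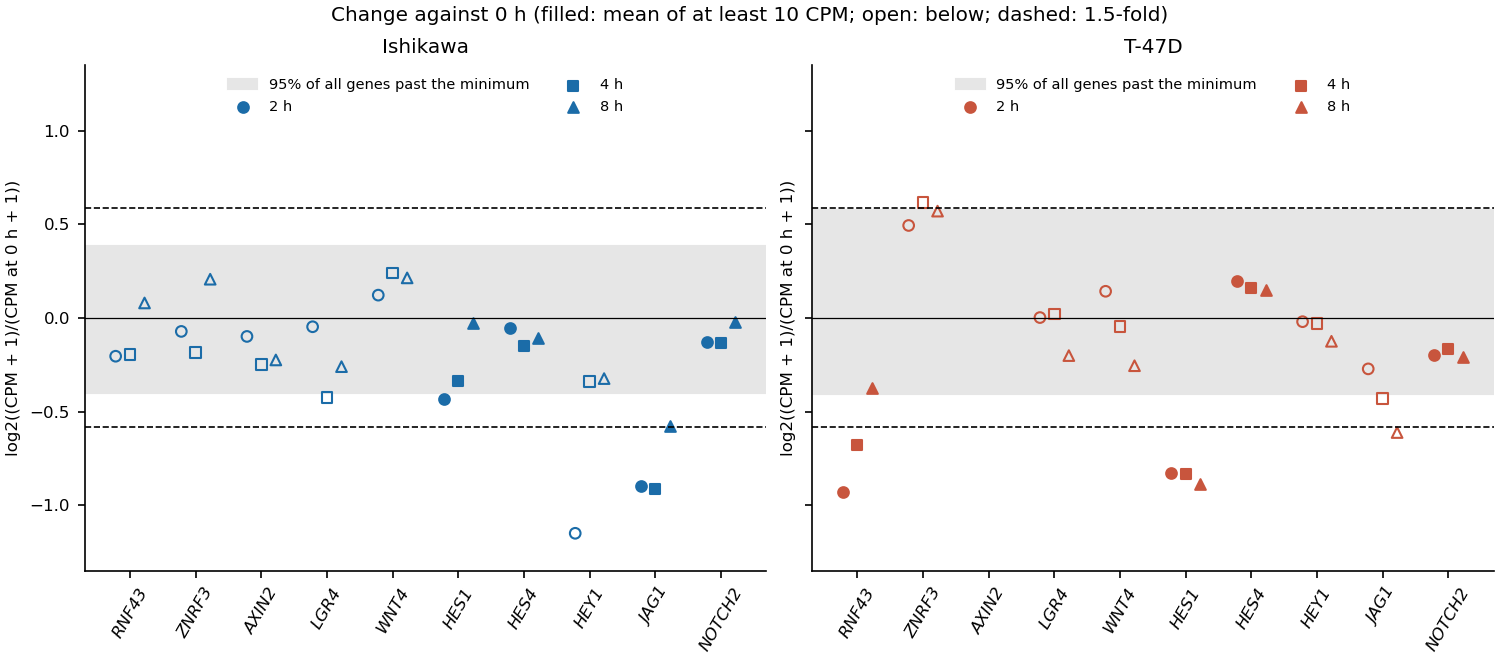
Change of each gene against 0 h of its line, log2((CPM + 1)/(CPM at 0 h + 1)), at 2 h (circles), 4 h (squares) and 8 h (triangles), with filled points for genes with a mean of at least 10 CPM and open points for genes below. The dashed lines mark 1.5-fold and the grey band spans the central 95% of all genes past the minimum, at its widest over the 3 times; RNF43 and HES1 in T-47D and JAG1 in Ishikawa lie below the lower dashed line at 2 and 4 h, and AXIN2 in T-47D, at 0 UMIs, has no point.

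The Wnt feedback gene RNF43 (ENSG00000108375, chr17:58352500-58417534) was lower in E2-treated T-47D cells, most at 2 h. It had 485, 191, 260 and 143 UMIs, or 14.6 CPM at 0 h (13.3 to 16.0), 7.20 CPM at 2 h (6.22 to 8.30), 8.77 CPM at 4 h (7.74 to 9.90) and 11.1 CPM at 8 h (9.32 to 13). The 0 h interval lay above all 3 E2 intervals, and those of neighbouring E2 times overlapped. The log2 changes were -0.93 and -0.68 at 2 and 4 h, past the fold rule, and -0.37 at 8 h. RNF43 passed the minimum of 10 CPM only through its 0 h pool, the same pool against which it was called lower. The minimum is thus no separate check on these calls. The ratio to 0 h was 0.493 (0.414 to 0.583) at 2 h, 0.60 (0.514 to 0.699) at 4 h and 0.757 (0.623 to 0.914) at 8 h. From 2 to 8 h it came back by a ratio of 1.54 (1.23 to 1.92).

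RNF43 had a UMI in 24% of T-47D cells at 0 h and in 13%, 15.7% and 21.7% at 2, 4 and 8 h. The thinned shares were 17.7%, 9.52%, 10.6% and 14.6%. With a mean of 10.4 CPM over the 4 pools, RNF43 passed the minimum narrowly, and with a pseudocount of 5 CPM its 4 h change was -0.51, short of the rule. In Ishikawa it had 23, 35, 23 and 51 UMIs, or 1.17 to 1.65 CPM, with no change detectable at this depth. At 0 h the T-47D level was 9.73 times that of Ishikawa (6.41 to 15.5).

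ZNRF3, the partner ligase, had the opposite balance between the lines. In Ishikawa it was at 9.34, 8.84, 8.11 and 10.9 CPM at 0, 2, 4 and 8 h, and no ratio to 0 h had an interval apart from 1. In T-47D it had 41, 57, 72 and 30 UMIs, or 1.24, 2.15, 2.43 and 2.32 CPM. There the ratio to 0 h was 1.74 (1.14 to 2.66), 1.96 (1.32 to 2.96) and 1.88 (1.13 to 3.08), above 1 at each time where RNF43 was below it. The mean of 2.03 CPM was under the minimum, so ZNRF3 was not called, and its shares of cells with a UMI were 2.69%, 4.39%, 4.77% and 5.42%. At 0 h Ishikawa held 7.56 times the ZNRF3 level of T-47D (5.31 to 11).

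AXIN2, the feedback scaffold, was scarce in Ishikawa and not seen in T-47D. Ishikawa pools held 17, 29, 15 and 25 UMIs, or 0.775 to 1.11 CPM, with overlapping intervals. T-47D pools held 0 UMIs in all 4 pools. For the largest of these, 0 of 1525 cells at 0 h allows, by the limit of 3 counts, a share of up to 0.197% with a UMI.

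The R-spondin receptor gene LGR4 was near 10 CPM in Ishikawa, at 11.2, 10.8, 8.06 and 9.16 CPM, a mean of 9.79 CPM that fell short of the minimum. Its ratio to 0 h was 0.721 (0.577 to 0.901) at 4 h and 0.820 (0.676 to 0.997) at 8 h. In T-47D it was at 7.26, 7.28, 7.39 and 6.19 CPM with overlapping intervals. WNT4, a ligand gene under progesterone control in the breast and uterus, had 3, 9, 8 and 12 UMIs in Ishikawa. In T-47D it had 83, 76, 71 and 25 UMIs, or 2.5, 2.87, 2.39 and 1.93 CPM, also with overlapping intervals.

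Counted over the members, 4 of the 10 genes passed the minimum in each line, HES1, HES4, JAG1 and NOTCH2 in Ishikawa and RNF43, HES1, HES4 and NOTCH2 in T-47D. In Ishikawa 1 member was lower at 2 h, 1 at 4 h and 0 at 8 h, where 0.659%, 0.621% and 0.469% of all 7885 genes past the minimum were lower. No member was higher, where 0.786%, 0.634% and 0.812% of all genes were. These were 50 genes higher and 49 lower at 4 h, a split that became 60 and 36 under TMM, 61 and 32 when pools were scaled by the median of ratios, and 54 and 59 with totals without reporter and mitochondrial UMIs. In T-47D 2 members were lower at 2 h, 2 at 4 h and 1 at 8 h, against 0.417%, 0.363% and 0.726% of 7440 genes, and none was higher against 1.22%, 1.33% and 2.34%. Members and rules were chosen with earlier results of these data known, so these counts cannot be ranked against the shares of all genes. RNF43, counted at 2 and 4 h in T-47D, passed the minimum through its 0 h pool. The 3 changes of a line share its 0 h pool and are not independent of each other. In bulk sums such as these pools, fewer cells with a transcript and less of it per cell are read together, which is why the shares of cells are given beside the levels.

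**Figure D3:**
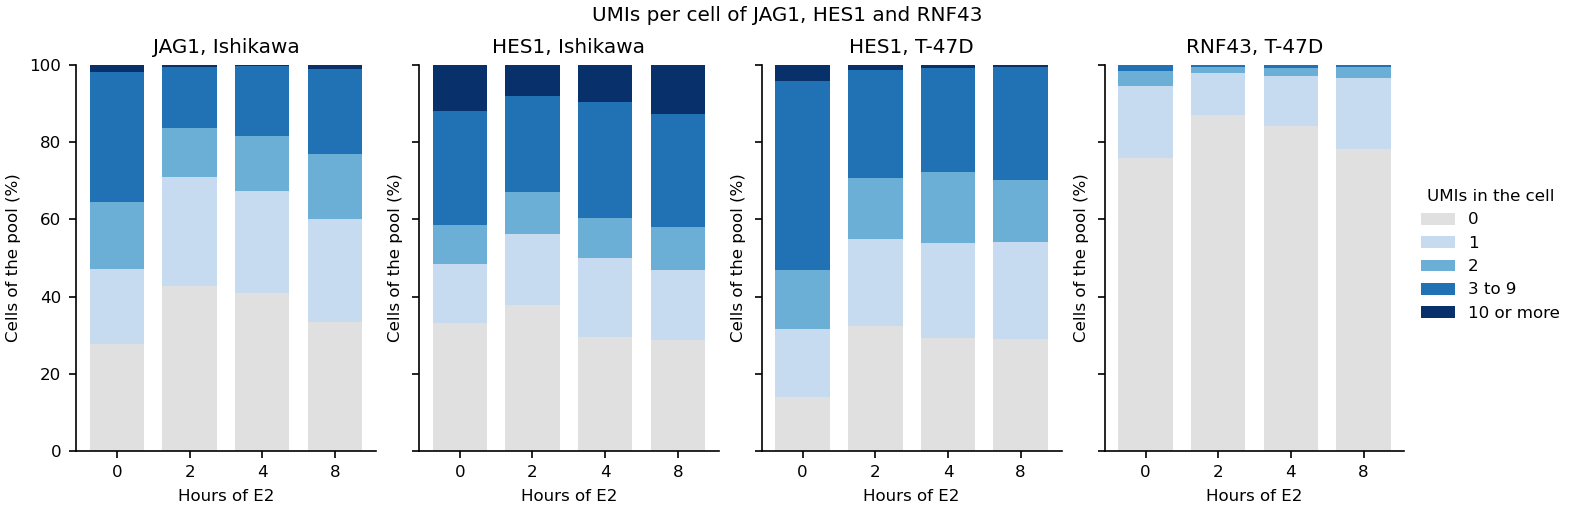
Share of cells (%, bars stacked to 100) with 0, 1, 2, 3 to 9, or 10 or more UMIs of JAG1 and HES1 in Ishikawa and of HES1 and RNF43 in T-47D, by hours of E2. The share with 0 UMIs of HES1 in T-47D was 14% at 0 h and 29.1% to 32.5% in E2, and Ishikawa held cells with 10 or more HES1 UMIs in each pool, 7.91% to 12.7% of cells.

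HES1 also differed between the lines in its spread from cell to cell. In the Ishikawa pools, 28.8% to 37.8% of cells had no HES1 UMI while single cells held up to 118, 165, 108 and 220, and the 10% of cells with most HES1 held 49.1% to 52.7% of all HES1 UMIs. In T-47D the highest cell held 13 to 18 HES1 UMIs per pool, and the corresponding 10% of cells held 29.0% to 35.6%. The coefficient of variation at 0 h was 1.79 in Ishikawa, against a median of 0.571 for the 789 genes in the same of 10 bins by mean, which placed the noise residual of HES1 at the 98.9th percentile of that bin. The residual is what remains of log2(CV + 1) after a smooth fit on the mean.

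By the same measure HES4 was at the 96.8th percentile and JAG1 at the 91.9th in Ishikawa, and RNF43 at the 95.6th and HES1 at the 94.2nd in T-47D. All 5 fell among the top 20% of their bins, the class called High noise, and kept it when cells were thinned to 1 depth. HES4 in T-47D and NOTCH2 in T-47D were of Medium noise, at the 73.1st and 46.7th percentiles, and at the 68.9th and 20.1st after thinning. NOTCH2 in Ishikawa was Medium at the 66.3rd percentile and Low at the 18.1st after thinning.

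Cells were then split by their share of UMIs from 22 genes of the G2/M phase, with the top 25% of each pool set against the rest. HES4 in T-47D was higher in these cells in all 4 pools, with ratios of 1.20 (1.12 to 1.28), 1.23 (1.15 to 1.32), 1.247 (1.17 to 1.33) and 1.5 (1.36 to 1.65) at 0, 2, 4 and 8 h. HES1 in T-47D was lower there, with ratios of 0.90 (0.842 to 0.960), 0.815 (0.736 to 0.901), 0.771 (0.70 to 0.848) and 0.734 (0.631 to 0.852). These 2 related genes lay on opposite sides of 1 in each T-47D pool. HES1 in Ishikawa had ratios of 1.04, 0.967, 0.899 and 0.986, with an interval apart from 1 at 4 h only (0.830 to 0.973). In Ishikawa HES4 was below 1 at 0 h, at 0.886 (0.804 to 0.976), and at 2 h, at 0.927 (0.864 to 0.994), and its intervals at 4 and 8 h held 1. In Ishikawa JAG1 was lower in them, with ratios of 0.841 (0.754 to 0.937), 0.887 (0.797 to 0.985), 0.849 (0.741 to 0.971) and 0.728 (0.660 to 0.802). NOTCH2 had ratios above 1 in all 8 pools, with an interval above 1 at 4 h (1.26, 1.01 to 1.55) and 8 h (1.29, 1.10 to 1.51) in Ishikawa and at 8 h (1.33, 1.04 to 1.69) in T-47D. RNF43 in T-47D had an interval apart from 1 at 4 h, at 0.602 (0.428 to 0.832). The genes above are those past the minimum in their line. Of the members under it, HEY1 in Ishikawa was lower at 4 h (0.359, 0.179 to 0.660) and 8 h (0.507, 0.323 to 0.771). In T-47D ZNRF3 was higher at 0 h (2.07, 1.05 to 4.02) and 4 h (2.24, 1.36 to 3.66). LGR4 was lower there at 8 h (0.439, 0.209 to 0.834). The groups are ranges of a score, with 21 to 130 cells per pool within 10% of the dividing value, and do not mark a phase. That value was 1681 to 2029 CPM of G2/M UMIs in Ishikawa and 343 to 481 CPM in T-47D. The top groups of the 2 lines are therefore unlike.

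**Figure D4:**
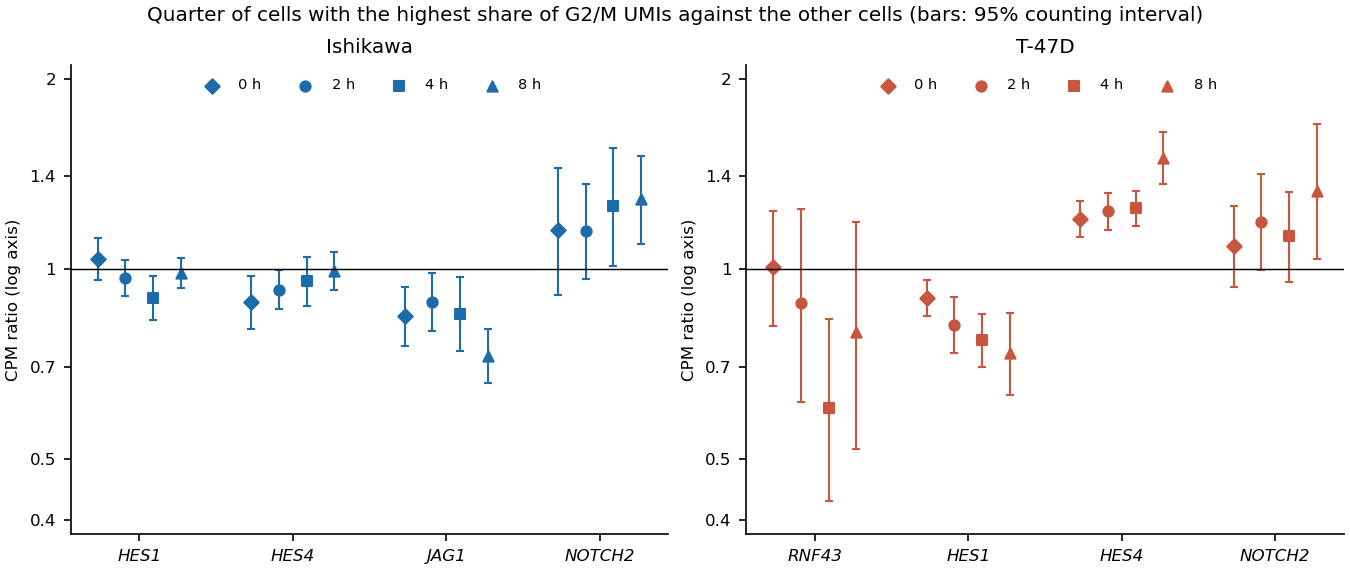
Ratio of CPM (log axis) between the 25% of cells with the highest share of G2/M UMIs and the other cells of the pool, for the genes past the minimum in each line, at 0 h (diamonds), 2 h (circles), 4 h (squares) and 8 h (triangles). Bars are 95% counting intervals; HES4 lies above 1 and HES1 below 1 in all 4 T-47D pools, and JAG1 below 1 in all 4 Ishikawa pools.

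Across cells of a pool, the rank correlation between pairs of members was small in these sparse counts, which cannot show that the genes are unrelated. Over 72 values of Spearman's rho, for members with a UMI in at least 10% of thinned cells, rho ran from -0.14 for HES4 and JAG1 in Ishikawa at 0 h (676 cells) to 0.10 for HES1 and HES4 in Ishikawa at 4 h (835 cells). The cells of a pool share a library and a depth of 12539 or 14495 UMIs, and such small values in sparse counts are no finding. The ligand JAG1 and the target HES1 gave -0.02, -0.03, -0.05 and 0.00 at 0, 2, 4 and 8 h in Ishikawa.

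The other genes of the 2 pathways were read by the same rule. Of 77 further Wnt genes 26 passed the minimum in each line, and of 48 further Notch genes 27 did in Ishikawa and 22 in T-47D. In Ishikawa 1 Wnt gene was higher and 1 lower at 2 h, 1 was higher at 4 h and none was called at 8 h. The Notch list held 1 higher gene at each of these times, HES2, and no lower gene. In T-47D 1 Wnt gene was higher, at 8 h, and no gene of the Notch list was called at any time. In Ishikawa 1 gene is 3.85% of the Wnt and 3.70% of the Notch genes past the minimum, where 0.469% to 0.812% of all genes were called in a direction. In T-47D 1 gene is 3.85% of the Wnt and 4.55% of the Notch genes. There 0.363% to 2.34% of all genes were called in a direction, with 2.34% higher at 8 h. A count of 0 or 1 thus cannot be ranked against the background in either line. At 2, 4 and 8 h the Ishikawa medians of the log2 change were -0.13, -0.09 and -0.09 for the Wnt genes past the minimum and -0.08 each for the Notch genes. The T-47D medians were -0.06, -0.08 and -0.12 for Wnt and -0.0050, -0.02 and -0.08 for Notch. Medians over all genes lay between -0.01 and 0.01.

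By role, the called Wnt genes in Ishikawa were the receptor gene FZD5, at 8.76, 14.7, 16.5 and 13.3 CPM, and BCL9L, a β-catenin co-activator gene, at 19.1, 12.2, 14 and 14.1 CPM. FZD5 was higher at 2 and 4 h, with changes of 0.69 and 0.84, and BCL9L lower at 2 h, with -0.61. On the Notch side HES2, a further gene of the HES family, was at 20.1, 47, 45.6 and 51.0 CPM, with changes of 1.18, 1.14 and 1.30. HES2 was thus higher in the pools in which JAG1 was lower. In T-47D the called gene was CD44, a surface receptor gene listed among Wnt targets, at 8.56, 9.61, 11.2 and 14.5 CPM and a change of 0.70 at 8 h. CD44 passed the minimum only through the 8 h pool, the same pool in which it was called higher. No R-spondin, DKK or SFRP gene, nor any other of the 16 secreted or membrane antagonists and R-spondins listed, passed the minimum in either line.

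**Figure D5:**
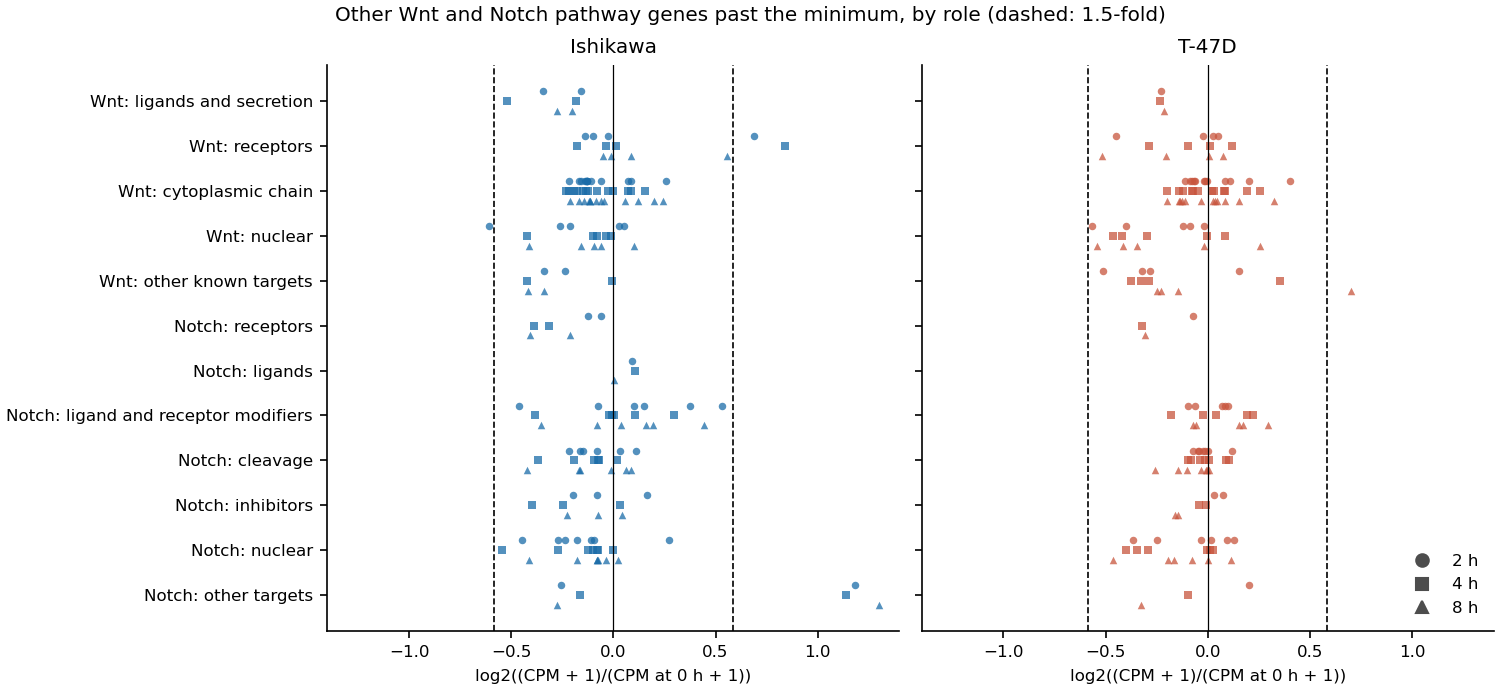
Log2 change against 0 h (horizontal axis) of the other Wnt and Notch genes with a mean of at least 10 CPM, by role, at 2 h (circles), 4 h (squares) and 8 h (triangles) in each line. Dashed lines mark 1.5-fold; the points beyond them are FZD5 and HES2 (higher) and BCL9L (lower) in Ishikawa and CD44 (higher) in T-47D.

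Genes with the most similar time courses were looked up for the 3 called members, by the root mean square difference of the 6 log2 changes over both lines among 6404 genes past the minimum in both. For JAG1 the T-47D values (20 to 96 UMIs per pool) and for RNF43 the Ishikawa values (23 to 51 UMIs) come from the line where the member was itself under the minimum, and RNF43 at 8 h in Ishikawa ran from 0.08 to -0.38 when cells were thinned, so the order of its neighbours is loose. For JAG1 they were the non-coding LINC02256 at 0.20, the AP-1 subunit gene JUNB at 0.21 and AP001816.1 at 0.21. For RNF43 they were HIVEP1, TWIST1 and ZFP36L2, each at 0.17. For HES1 they were ZFP36L2 at 0.17, the zinc finger gene ZNF503 at 0.18 and HIVEP1 at 0.20. ZFP36L2, an mRNA decay factor gene, changed by -0.64, -0.68 and -0.62 in T-47D, against -0.28, -0.18 and -0.08 in Ishikawa. The 6 values rest on 8 pools, with 0 h shared by 3 of them in each line.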

How the data were processed

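Single-cell RNA of 2 cell lines was measured with the 10x Genomics 3′ kit, 4 MULTI-seq tagged cultures per line in 1 library. The authors made the deposited UMI counts per gene and barcode with Cell Ranger 3.1.0 on hg38, per the submitters' processing notes, and assigned barcodes to time points with the demultiplex R package. The counts are not normalised. The MULTI-seq tag libraries have no counts used here, and the table of tag sequences was not used.

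The study's own limits were applied to barcodes with a single time point. Ishikawa cells had to hold 8500 to 35000 UMIs from 2700 to 6000 genes, with a mitochondrial share below 7%, and 4613 of 9077 called cells did. T-47D cells had to hold 7500 to 40000 UMIs from 1500 to 6000 genes, with a share below 20%, and all 4626 did. Tag doublets (1906 and 1442) and barcodes with no call (4002 and 12120) were left out. No other doublet caller was run, so pairs of cells with the same tag remain; a lower UMI limit of 1.5 times the line's median was an alternative.

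UMIs were summed per pool and scaled to total UMIs. Intervals were exact Poisson (CPM), exact Clopper-Pearson (shares) and exact conditional binomial (ratios). UMI depth sets the precision, and intervals cover counting error only. Reporter features were left out of counts over all genes. Noise was adapted from the study's method (mgcv 1.9.3): log2(CV + 1) was fitted on log10 of the mean over genes past 10 CPM only, and residuals were not returned to the CV scale, so classes need not match the study's. Other steps used Python 3.11.15, SciPy 1.17.1 and edgeR 4.0.16, the last for TMM factors only. The calling steps were checked on simulated pools with Poisson counting error only. That check does not cover the spread between cells or between cultures.

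The 10 members, the pathway lists and the rules were chosen with earlier results of these data known. Named genes were the members in every pool, the 3 nearest genes of each called member, listed pathway genes called at any time (at most 4 per role and line), and PGR, GREB1 and TFF1. From the Notch list 1 gene is not reported here and stayed out of the list's counts and medians. Alternatives varied the scaling, cells, depth, summary over cells, pseudocount, fold and minimum.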

Additional observations from a re-analysis of the deposited data

Results flagged for a closer look

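HES4 moved in opposite directions in the 2 lines at 4 and 8 h, with both counting intervals apart from a ratio of 1. At 4 h the ratio to 0 h was 0.90 (0.849 to 0.954) in Ishikawa and 1.12 (1.07 to 1.17) in T-47D, and the log2 change in T-47D exceeded that in Ishikawa by 0.31. At 8 h the ratios were 0.929 (0.881 to 0.979) and 1.11 (1.05 to 1.17), and the difference of the log2 changes was 0.25. This contrast of the lines rests on 1 culture per time point and was not tested, and both changes are inside the fold rule. The intervals leave out the spread between cells, and HES4 was of High noise in Ishikawa. The lower quartile of all Ishikawa genes past the minimum was -0.11 at 4 h and -0.10 at 8 h, close to HES4 at 8 h. The upper quartile in T-47D was 0.08 at 4 h and 0.12 at 8 h. Each line's 2 values share its 0 h pool. In Ishikawa cells under 1% GFP the log2 change of HES4 was -0.08 at 4 h and -0.03 at 8 h, against -0.15 and -0.11 in all kept cells, and at 2 h it was 0.03 against -0.05. In T-47D, HES4 was 1.2 to 1.5 times as high in the 25% of cells with the highest share of G2/M UMIs, and the part of this in the change was not tested.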

How the results depend on the processing

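No paired analysis was possible because the result comes from no test and each group is 1 culture. No replicate could be left out either. Of 508 log2 changes of members recomputed under alternatives, 492 moved by less than their counting interval and 16 by more. No called change turned its sign, while 18 values of changes that were not called did. Among these RNF43 in Ishikawa at 8 h went from 0.08 to -0.08 with all called cells, -0.02 with cells under 1% GFP and -0.38 with thinned cells, and HES1 in Ishikawa at 8 h from -0.03 to 0.0097 with the mean over cells. All called T-47D cells were kept, so that alternative gives the same values there and was not counted. The Ishikawa pools at 2, 4 and 8 h had 1, 1 and 0 lower members. At 8 h this became 1 (JAG1) with totals without reporter and mitochondrial UMIs, with all called cells, with the lower UMI limit, with cells under 1% GFP and with a smaller fold (0.32 on the log2 scale). At 2 h it became 2 with cells under 1% GFP, with the smaller fold (HES1 joined) and with a minimum of 1 CPM (HEY1 joined), and at 4 h 2 with the smaller fold. A fold of 2 left 0 lower at 2 and 4 h. T-47D had 2, 2 and 1 lower members, and a fold of 2 left 0 at each time. A pseudocount of 5 CPM left 1 at 4 h and a minimum of 50 CPM left 1 at 2 and 4 h, where RNF43 dropped out. The smaller fold gave 2 at 8 h with RNF43, and a minimum of 1 CPM gave 2 at 8 h with JAG1 and 1 higher, ZNRF3, at 4 h. These follow from the fold or minimum itself; for the sets of cells the cause was not tested. Scaling factors from TMM or median of ratios changed no count of members and shifted the median of all genes by under 0.1. Counts over all genes moved more. The 52, 49 and 37 genes lower in Ishikawa at 2, 4 and 8 h became 111, 118 and 82 with all called cells, 79 and 67 at the later times with cells under 1% GFP, 32 at 4 h with median of ratios, and 31, 23 and 22 with a pseudocount of 5 CPM. The same pseudocount gave 41 in place of 62 higher at 2 h in Ishikawa and 16 in place of 27 lower at 4 h in T-47D. The smaller fold gave 125 to 529 genes per direction and time over both lines, a fold of 2 gave 1 to 61, a minimum of 1 CPM 69 to 379, and one of 50 CPM 7 to 51. Thinning lowered 62 of 80 shares of cells with a UMI beyond their interval, as fewer UMIs per cell must. Depth limits AXIN2, WNT4, HEY1 and, in T-47D, JAG1 and ZNRF3, and 1 culture per time point leaves the spread between cultures unknown.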
